A study of Homo sapiens with 12 samples.

Results

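The 8 genes examined here are named as genes of CDK inhibitors and are all called CDK inhibitor genes below. Their proteins hold back cyclin-dependent kinases, CDKN3 as a phosphatase and the others by binding the kinases or their cyclins. The 8 genes were chosen by name from the deposited table of counts, with earlier results of these data known. The rule that names them uses no measured value. The table held 28278 genes, and all 8 CDK inhibitor genes had a row in it. RNA came from OCI-Ly7 cells, an established human line of diffuse large B-cell lymphoma whose stated source is a pleural effusion. All 4 lines were untreated, per their labels, and were grown in IMDM with FBS. The EZH2 mutant line carries EZH2 Y646N, labelled as a gain of function (2 libraries). The KMT2D mutant line is labelled kmt2d-/- (3 libraries), the double mutant line kmt2d-/- with EZH2 Y646N (3 libraries), and the wild-type line carries neither change (3 libraries). The mutants were made by CRISPR in the wild-type line, and whether each is a single clone was not stated. Transcripts were counted at their 3′ ends by MARS-seq. Counts of 3′ ends cannot show the engineered changes, so the genotype labels were not checked by them.

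CDK inhibitors are grouped by structure into the CIP/KIP and INK4 families. The CIP/KIP proteins p21, p27 and p57 (genes CDKN1A, CDKN1B and CDKN1C) bind cyclin and kinase together, chiefly CDK2 complexes. The INK4 proteins p16, p15, p18 and p19 (CDKN2A, CDKN2B, CDKN2C and CDKN2D) bind CDK4 and CDK6 and thereby keep RB proteins active against E2F factors. CDKN3 belongs to neither family and encodes a phosphatase that removes an activating phosphate from CDK2. EZH2 places methyl groups on lysine 27 of histone H3, a repressive mark, and KMT2D methylates lysine 4 of histone H3 at enhancers. In germinal centre B cells EZH2 is known to hold CDKN1A and other CDK inhibitor genes low, and in mice p18 is known to be needed for the arrest of plasma cells.

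Library totals ran from 1118710 to 3107871 counts, so that 3 counts corresponded to between 0.965 and 2.68 CPM, counts scaled to a common library total. The shallowest library was EZH2 mutant replicate 1. Of the 28278 genes, 8813 had enough counts for the test, 6 of the 8 CDK inhibitor genes among them. CDKN1C had too few counts and CDKN2B had none. The B cell label was checked by 9 markers, whose summed level was 9631, 6835, 7846 and 8347 CPM on average in the EZH2 mutant, KMT2D mutant, double mutant and wild-type lines. Of 12 T and NK cell markers, summed at 176 to 317 CPM per library, LCK gave most, and CD3D, CD2 and CD8A were at 0. Of 10 myeloid markers, summed at 4.23 to 33.6 CPM, 5 were at 0, and of 10 fibroblast and epithelial markers, summed at 0.458 to 5.69 CPM, 6 were at 0.

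In what follows a normalised CPM is a CPM scaled by TMM factors, errors are SD over the libraries of a line, and a gene is said to have risen or fallen where the adjusted p (edgeR's quasi-likelihood test, Benjamini-Hochberg) was under 0.05 over all 8813 genes. The labels do not state whether replicates came from separate cultures, and p-values cover the spread among the samples at hand, which may be technical. The 3 mutant lines share their wild-type libraries, so their comparisons with wild type are not independent of each other. Each genotype is represented by a single line, so a mutation cannot be told apart from other differences between the lines. Where an effect of a mutation is named below, it means the difference between such lines. In RNA from whole cultures, fewer cells expressing a gene and less of its RNA in each cell cannot be told apart. Where all libraries of some lines are said to lie above or below others, this only describes the values. The share of all genes that separate in that way was not counted.

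With the EZH2 mutation CDKN1A rose, CDKN2C, CDKN3 and CDKN1B fell, and CDKN2A and CDKN2D did not pass the test. That makes 1 gene higher and 3 lower of the 6 tested in the EZH2 mutant, where 32.3% of all tested genes passed, 17.1% higher and 15.1% lower. The median log2 fold change was -0.44 over the 6 genes and -0.04 over all tested genes. In the double mutant the count was again 1 higher and 3 lower, beside 23.7% of all tested genes, 12.1% higher and 11.6% lower, with medians of -0.47 and -0.01. In the KMT2D mutant CDKN2C alone fell and none rose, beside 7.66% of all tested genes, 3.18% higher and 4.48% lower. With 6 genes tested these counts are a description, and the results rest on the single genes below. With 2 libraries the EZH2 mutant is the least precisely measured line.

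**Figure D1:**
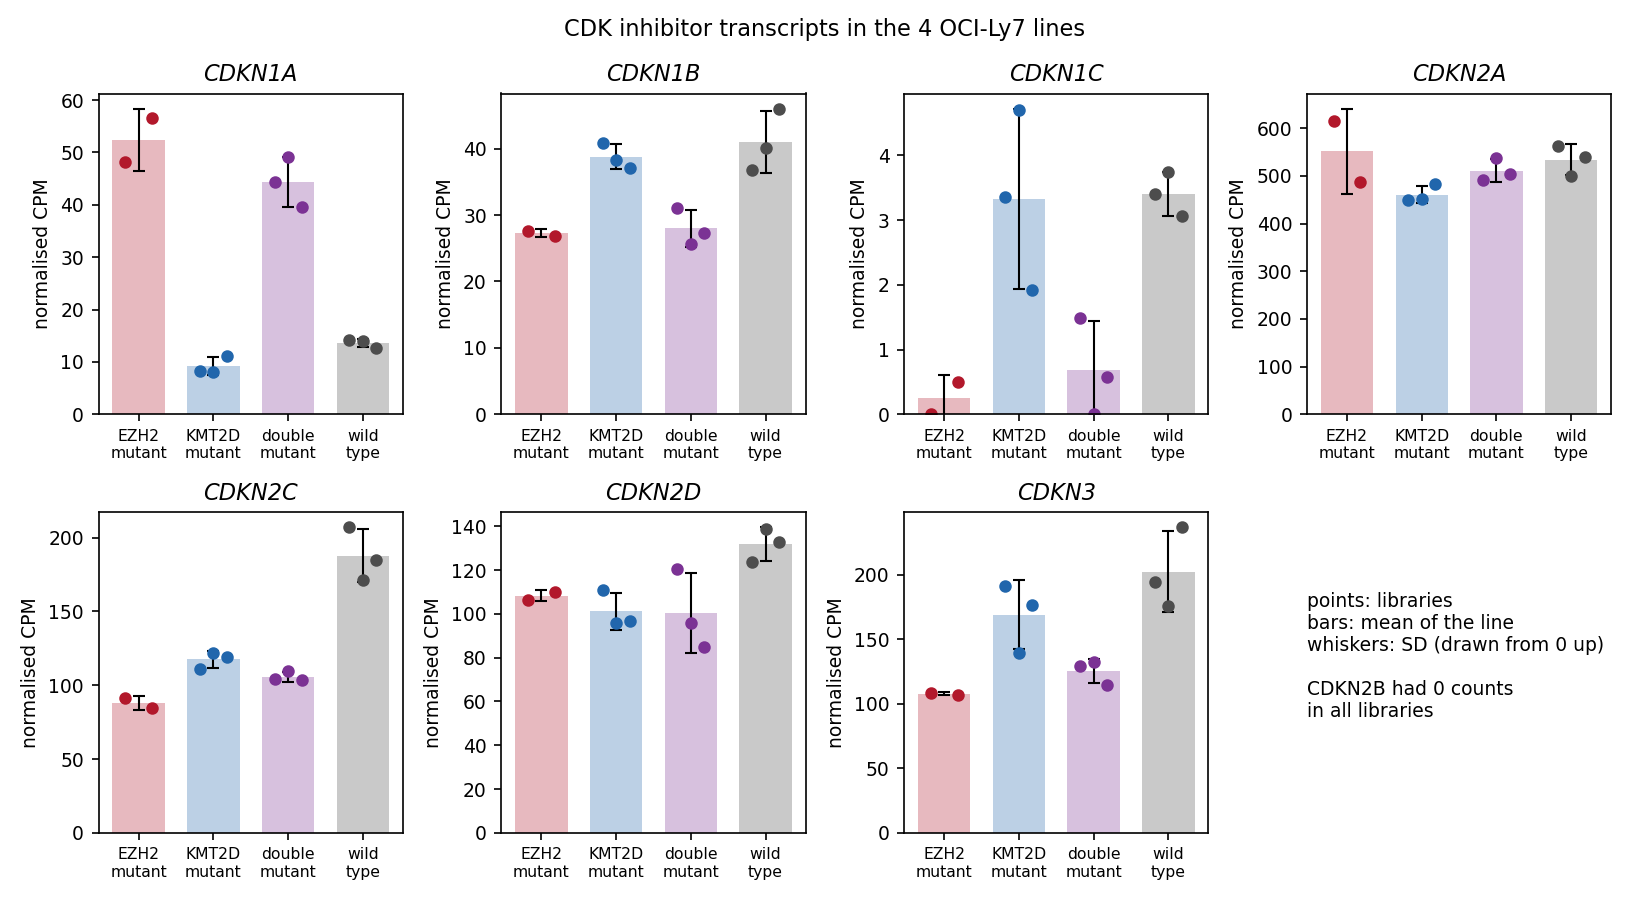
Normalised CPM (y axis, linear, from 0) of the 7 CDK inhibitor genes with counts, in EZH2 mutant, KMT2D mutant, double mutant and wild-type libraries (x axis). Points are libraries, bars are means and whiskers SD, and CDKN1A stands at 39.5 to 56.6 in the 5 libraries with mutant EZH2 and at 8.06 to 14.1 in the other 6.

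CDKN1A encodes p21 and lies on the plus strand of chromosome 6 from 36676460 to 36687339 (GRCh38, GENCODE 29, ENSG00000124762.13). It stood at 48.1 and 56.6 normalised CPM in the EZH2 mutant and at 44.4, 49.1 and 39.5 in the double mutant, against 8.22, 8.06 and 11.1 in the KMT2D mutant and 14.1, 13.9 and 12.7 in wild type. The 5 libraries with mutant EZH2 lay above the other 6 without overlap, and the KMT2D mutant libraries lay below those of wild type. The raw counts were 47 and 114 in the EZH2 mutant, 90, 65 and 68 in the double mutant, 27, 12 and 29 in the KMT2D mutant, and 25, 41 and 33 in wild type. By edgeR's quasi-likelihood test CDKN1A rose 3.89-fold in the EZH2 mutant (log2 1.96, SE 0.22, Benjamini-Hochberg adjusted p = 3.97e-06) and 3.25-fold in the double mutant (log2 1.70, SE 0.20, adjusted p = 6.98e-06), both against wild type. Between the lines labelled kmt2d-/-, the double mutant stood 4.78-fold above the KMT2D mutant (log2 2.26, SE 0.21, adjusted p = 1.86e-07).

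KMT2D loss alone gave CDKN1A a log2 fold change of -0.55 (SE 0.23, adjusted p = 0.174 in edgeR's quasi-likelihood test), and KMT2D loss on top of the EZH2 mutation gave -0.26 (SE 0.21, adjusted p = 0.570), neither past the threshold. The interaction of the 2 mutations, which asks whether the EZH2 mutation acted by a different size with and without KMT2D, was log2 0.30 with a 95% interval from -0.35 to 0.94. A difference of up to 0.94 on that scale is therefore within the error. DINOL, a long noncoding RNA gene on the opposite strand that overlaps CDKN1A, had 3 counts in all libraries together, and whether the counting used strand was not given.

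The RefSeq promoter of CDKN1A is shown because this gene rose in both lines with mutant EZH2. The stretch at chr6:36678464-36678657 (GRCh38.p14, plus strand) holds no GENCODE 29 exon and ends 56 bases before the RefSeq start, and capitals mark GC boxes, GGGCGG, known as binding sites of SP1 family factors.
CDKN1A: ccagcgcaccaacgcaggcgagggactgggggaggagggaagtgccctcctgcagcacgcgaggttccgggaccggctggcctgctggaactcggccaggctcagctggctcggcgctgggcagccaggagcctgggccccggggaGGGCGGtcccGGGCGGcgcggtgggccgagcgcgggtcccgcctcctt
The search covered both strands of the 250 bases before each RefSeq start, and the window of CDKN1A held 4 GC boxes, 2 of them in the stretch shown. At least 1 GC box was found in 42.6% of 35116 windows of that length, the 2 in the stretch shown overlap no other match, and the other 2 share letters with each other. The window of CDKN1A had 27 CpG pairs, against a median of 11 over all windows. The other motifs searched were the CCAAT box, the CHR element spelled TTTGAA, the E2F site spelled GGCGGGAA and the TATA box spelled TATAAA (in 10.7% of windows), and the window of CDKN1A held none of them.

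CDKN1B encodes p27 and lies on the plus strand of chromosome 12 from 12715058 to 12722371 (ENSG00000111276.10). It stood at 27.7 and 26.8 normalised CPM in the EZH2 mutant and at 31.1, 25.7 and 27.3 in the double mutant, against 40.8, 38.3 and 37.1 in the KMT2D mutant and 36.8, 40.1 and 46.0 in wild type. The 5 libraries with mutant EZH2 were thus all below the other 6, the opposite of CDKN1A. CDKN1B fell 1.51-fold in the EZH2 mutant (log2 -0.60, SE 0.21, adjusted p = 0.0316 in edgeR's quasi-likelihood test, Benjamini-Hochberg adjusted) and 1.46-fold in the double mutant (log2 -0.54, SE 0.17, adjusted p = 0.0288). The double mutant was also 1.38-fold below the KMT2D mutant (log2 -0.46, SE 0.18, adjusted p = 0.0417). All 3 calls were lost in DESeq2, with adjusted p of 0.0785, 0.0690 and 0.0949, and the direction held in all 19 alternatives. The first was also lost with only the groups compared (0.0687) and without wild type replicate 2 (0.0510) or 3 (0.101) or EZH2 mutant replicate 1 (0.0965) or 2 (0.118). The second was lost without wild type replicate 2 (0.0555) or 3 (0.120) or double mutant replicate 2 (0.101) or 3 (0.0718). The third was lost with no filter (0.0723), without wild type replicate 2 (0.0517), KMT2D mutant replicate 1 (0.139), 2 (0.0691) or 3 (0.0731), or double mutant replicate 2 (0.126) or 3 (0.0944), and with the replicate block (0.0519), which also ended the first (0.0588). With KMT2D loss alone CDKN1B was at log2 -0.08, with a 95% interval from -0.42 to 0.26.

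CDKN1C encodes p57 and lies on the reverse strand of chromosome 11 from 2883213 to 2885773 (ENSG00000129757.13), in a region known for imprinting. It had 0 and 1 counts in EZH2 mutant libraries and 3, 0 and 1 counts in those of the double mutant, against 11, 7 and 5 in the KMT2D mutant and 6, 11 and 8 in wild type. Each library with mutant EZH2 had fewer counts than each library without it. From summed counts over library totals corrected by TMM factors, CDKN1C was 10.2-fold lower in the EZH2 mutant than in wild type (1 against 25 counts, exact 95% interval 1.67 to 419.6) and 4.33-fold lower in the double mutant than in wild type (4 against 25 counts, 1.50 to 17.1). The double mutant was 3.95-fold below the KMT2D mutant (4 against 23 counts, 1.35 to 15.7). These intervals cover counting error only.

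When every gene with a count was tested, which made 15090 genes, edgeR's quasi-likelihood test gave CDKN1C adjusted p-values of 0.0246, 0.0438 and 0.0460 in the same 3 comparisons, where 10.7%, 8.83% and 14.6% of genes were called lower. The gene is thus near the limit of what this depth can show. KMT2D loss alone left CDKN1C at 23 against 25 counts, a ratio of 0.912 with an interval from 0.494 to 1.67.

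CDKN2C encodes p18 and lies on the plus strand of chromosome 1 from 50960745 to 50974633 (ENSG00000123080.10). It was the single CDK inhibitor gene that fell in all 3 mutant lines. It stood at 91.2 and 84.4 normalised CPM in the EZH2 mutant, 111, 122 and 119 in the KMT2D mutant, with 104, 109.5 and 103 in the double mutant, against 207, 171 and 185 in wild type. All 8 mutant libraries were below the 3 of wild type, and the libraries of the 4 lines did not overlap in any pair. The order was wild type, KMT2D mutant, double mutant, EZH2 mutant.

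By edgeR's quasi-likelihood test CDKN2C fell 2.14-fold in the EZH2 mutant (log2 -1.10, SE 0.15, Benjamini-Hochberg adjusted p = 2.81e-05), 1.60-fold in the KMT2D mutant (log2 -0.68, SE 0.12, adjusted p = 0.00160) and 1.78-fold in the double mutant (log2 -0.83, SE 0.13, adjusted p = 0.000115). Each of these calls held in all 19 alternatives tried. The double mutant was at log2 0.27 relative to the EZH2 mutant (95% interval -0.05 to 0.59, adjusted p = 0.407) and at log2 -0.15 relative to the KMT2D mutant (-0.42 to 0.12, adjusted p = 0.361), neither past the threshold in edgeR's quasi-likelihood test. Under upper-quartile factors the second of these was called at an adjusted p of 0.0498.

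The effect of the EZH2 mutation on CDKN2C therefore differed in size between the lines with and without KMT2D, and this was tested directly. The interaction was log2 0.95 (SE 0.20, adjusted p = 0.00985 in edgeR's quasi-likelihood test, Benjamini-Hochberg adjusted), and 1 of the 6 tested genes passed it, beside 3.02% of all tested genes (1.5% higher and 1.52% lower). CDKN2C was lower in both single mutant lines, and its fall in the double mutant was less than the sum of their log2 differences. Without EZH2 mutant replicate 2 the interaction was log2 0.94 with an adjusted p of 0.0519, and the call was lost. That setting leaves 1 EZH2 mutant library, which is then assumed to vary like the libraries of the other lines.

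**Figure D2:**
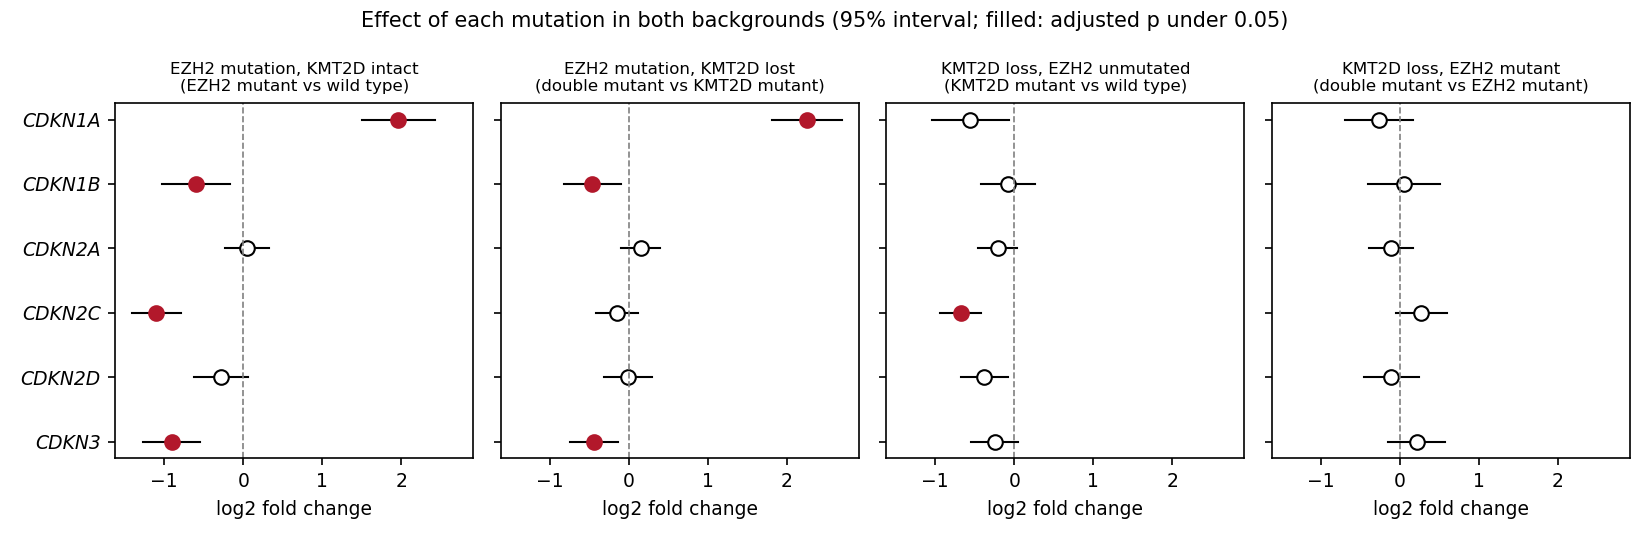
Log2 fold change (x axis) with its 95% interval for the 6 tested CDK inhibitor genes (y axis), for the EZH2 mutation with and without KMT2D and for KMT2D loss with unmutated and mutant EZH2. Filled points passed the adjusted threshold, and CDKN2C is at -1.10 for the EZH2 mutation with KMT2D present and at -0.15 without it.

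RefSeq gives CDKN2C 3 start sites, and the most upstream promoter is shown because it ends just before GENCODE begins the gene. It covers chr1:50960495-50960744 (GRCh38.p14, plus strand) and held none of the 5 motifs on either strand, so no letter is in capitals.
CDKN2C: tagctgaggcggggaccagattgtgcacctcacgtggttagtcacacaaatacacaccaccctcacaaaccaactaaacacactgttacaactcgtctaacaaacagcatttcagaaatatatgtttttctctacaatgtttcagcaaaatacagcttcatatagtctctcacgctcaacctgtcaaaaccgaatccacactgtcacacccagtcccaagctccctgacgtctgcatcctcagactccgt
The stretch had 7 CpG pairs. The second RefSeq window of CDKN2C had 35, with 5 GC boxes and 1 match to GGCGGGAA, a form of the E2F site that 2.72% of all windows held. Counts of 3′ ends do not show which start was used.

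CDKN2A encodes p16 and, from another first exon in another reading frame, the protein ARF. It lies on the reverse strand of chromosome 9 from 21967753 to 21995301 (ENSG00000147889.17), and since both transcripts share their later exons, 3′ counts cannot tell them apart. It stood at 615 and 488 normalised CPM in the EZH2 mutant, 448, 452 and 482 in the KMT2D mutant, with 491, 538 and 504 in the double mutant, against 562, 499 and 541 in wild type. The libraries of the EZH2 mutant and of the double mutant overlapped those of wild type, while those of the KMT2D mutant were lower. No comparison called CDKN2A. Its log2 fold changes were 0.04 in the EZH2 mutant (95% interval -0.23 to 0.32), -0.21 in the KMT2D mutant (-0.46 to 0.03) and -0.06 in the double mutant (-0.31 to 0.18), all against wild type, and the sign of the first turned under 6 of 19 alternatives.

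CDKN2A gave 58.8% ± 4.11 of the counts of the 8 genes in the EZH2 mutant libraries (n = 2), 51.2% ± 1.87 in the KMT2D mutant, with 55.8% ± 2.29 in the double mutant, against 47.9% ± 1.27 in wild type (SD, n = 3 each). Its own level was not shown to differ while the summed level of the 8 genes was 935 ± 86.9 normalised CPM in the EZH2 mutant, 900.0 ± 34.6 in the KMT2D mutant, with 915 ± 38.4 in the double mutant, against 1114 ± 62.2 in wild type. All 8 mutant libraries had a sum of at most 997, and the lowest wild-type library had 1043. The antisense gene CDKN2B-AS1 overlaps CDKN2A and CDKN2B, and it had 44 counts in all 11 libraries together.

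CDKN2B encodes p15 and lies next to CDKN2A, on the reverse strand of chromosome 9 from 22002903 to 22009363 (ENSG00000147883.10). It had 0 counts in every library. Taking 3 counts over a line as the limit, this allows a level of up to 1.00 normalised CPM in the EZH2 mutant, 0.406 in the KMT2D mutant, with 0.592 in the double mutant, against 0.410 in wild type. A difference between lines was not detectable at this depth. MTAP, a neighbour on the other side of CDKN2A that encodes an enzyme of methionine salvage, had 2, 11, 6 and 12 counts in the EZH2 mutant, KMT2D mutant, double mutant and wild-type lines.

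CDKN2D encodes p19 and lies on the reverse strand of chromosome 19 from 10566462 to 10569059 (ENSG00000129355.6). It stood at 107 and 110.2 normalised CPM in the EZH2 mutant, 111, 96.0 and 96.9 in the KMT2D mutant, with 120.4, 95.9 and 84.8 in the double mutant, against 124, 139 and 133 in wild type. No comparison passed the test. In value all 8 mutant libraries were below wild type, a description only, since the share of all genes that separate so was not counted. The log2 fold changes against wild type were -0.28 in the EZH2 mutant (SE 0.16), -0.38 in the KMT2D mutant (SE 0.14) and -0.39 in the double mutant (SE 0.14), with adjusted p-values of 0.189, 0.115 and 0.0530 in edgeR's quasi-likelihood test. The value of the double mutant lay at the threshold and was called in 8 of 19 alternatives, with adjusted p from 0.0144 to 0.199.

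CDKN3 lies on the plus strand of chromosome 14 from 54396849 to 54420218 (ENSG00000100526.19) and is known to peak late in the cell cycle. It stood at 109 and 107 normalised CPM in the EZH2 mutant, 191, 139.6 and 177 in the KMT2D mutant, with 129, 132 and 114 in the double mutant, against 195, 176 and 237 in wild type. The 5 libraries with mutant EZH2 were below the other 6, with KMT2D mutant replicate 2 nearest to them. CDKN3 fell 1.88-fold in the EZH2 mutant (log2 -0.91, SE 0.17, adjusted p = 0.000573) and 1.62-fold in the double mutant (log2 -0.69, SE 0.15, adjusted p = 0.00195) against wild type by edgeR's quasi-likelihood test, Benjamini-Hochberg adjusted.

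The double mutant was 1.36-fold below the KMT2D mutant in CDKN3 (log2 -0.44, SE 0.15, adjusted p = 0.0208 in edgeR's quasi-likelihood test). This call was lost without KMT2D mutant replicate 1 (adjusted p = 0.118), without KMT2D mutant replicate 3 (0.0733) or without double mutant replicate 3 (0.0763). The KMT2D mutant against wild type gave log2 -0.25 (95% interval -0.55 to 0.04). The interaction was log2 0.47 with an adjusted p of 0.319 in the same test.

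The promoter of CDKN3 is shown beside that of CDKN1A because both genes moved with the EZH2 mutation, in opposite directions. The stretch at chr14:54396757-54396848 (GRCh38.p14, plus strand) ends where the first GENCODE 29 exon begins, 158 bases before the RefSeq start. Capitals mark a CCAAT box and, on the opposite strand, a match to TTTGAA, the CHR element known from genes of G2 and mitosis.
CDKN3: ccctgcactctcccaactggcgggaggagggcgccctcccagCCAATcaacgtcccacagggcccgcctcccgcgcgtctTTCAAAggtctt
CCAAT was in 32.0% and TTTGAA in 13.3% of all windows, searched on both strands. The whole RefSeq window of CDKN3 held 2 CCAAT boxes, the other lying beyond the stretch shown, on the opposite strand. In the RefSeq windows of the other CDK inhibitor genes TTTGAA had no match, while CCAAT was found in those of CDKN1B (2 matches), CDKN2D (1) and 1 of the 3 windows of CDKN2C (1). No RefSeq window of CDKN1C was used here.

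Set directly against each other, the double mutant and the EZH2 mutant differed in none of the 6 tested genes by edgeR's quasi-likelihood test, beside 2.29% of all tested genes (0.715% higher and 1.58% lower). No unadjusted p was under 0.05, and DESeq2 and limma-voom called 0 as well. Between the double mutant and the KMT2D mutant 1 gene was higher and 2 were lower, beside 41.9% of all tested genes (21.2% higher and 20.8% lower). With KMT2D loss alone CDKN2C passed adjustment, beside 7.66% of all tested genes, while CDKN1A and CDKN2D had only an unadjusted p under 0.05. All 3 were lower. Shares of all genes under that unadjusted threshold were not counted, here or for the lists below. The 95% intervals of the KMT2D effect on mutant EZH2 were -0.69 to 0.17 for CDKN1A, -0.40 to 0.51 for CDKN1B, -0.05 to 0.59 for CDKN2C and -0.15 to 0.58 for CDKN3, so changes of that size remain possible.

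Across the 11 libraries CDKN1A and CDKN1B ran in opposite directions, with a Pearson r of -0.91 between log2 CPM values, and CDKN1A and CDKN3 at -0.79. CDKN1B and CDKN3 ran together at 0.90, and CDKN2C and CDKN3 at 0.83. CDKN2A followed none of the other tested members closely, its values lying between -0.30 and 0.45. The points share lines and scaling, so these values mostly restate the differences between lines and carry no test.

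Among 6406 genes of at least 10 CPM, the 3 with the closest pattern to CDKN1A were SNHG3 (r = 0.99), ATP5MC1 (0.99) and PSME2 (0.98) over the 11 libraries. Close to CDKN1B were SMCO4 (0.96) and XKR6 (0.95), and to CDKN2C TNNT1 (0.98), ARHGAP11A (0.95) and FAM110A (0.94). CDKN3 was closest to SNX30 (0.94), TNFSF8 (0.93) and JUNB (0.93). The best values were lower for CDKN2A, with TMEM222 (0.91), PPP1R35 (0.90) and ARF5 (0.90), and for CDKN2D, with TRRAP (0.90) and ZBTB8OS (0.88).

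The kinases and cyclins that these proteins act on were read beside them. Of 11 tested cyclins and CDKs, 1 rose and 5 fell in the EZH2 mutant, none passed in the KMT2D mutant, and 1 rose and 3 fell in the double mutant, beside 32.3%, 7.66% and 23.7% of all tested genes called in these lines. In the KMT2D mutant 1 cyclin or CDK gene had an unadjusted p under 0.05, edgeR's quasi-likelihood test, DESeq2 and limma-voom called 0, and 1 was called with no filter, with only the groups compared or without wild type replicate 1 or 3. CDK4, a target of the INK4 proteins, rose to 576 ± 55.5 normalised CPM in the EZH2 mutant (n = 2), against 353 ± 46.8 in wild type (log2 0.71, SE 0.16). Its partner CCND3, which encodes cyclin D3, fell to 439 ± 3.59 in the EZH2 mutant (n = 2) and 411 ± 18.9 in the double mutant, against 762 ± 24.1 in wild type (log2 -0.80 and -0.89). CDK1, the kinase of mitosis, fell to 49.8 ± 6.75 in the EZH2 mutant and 67.9 ± 19.4 in the double mutant, against 140 ± 43.3 in wild type (log2 -1.47 and -1.04). The count of the double mutant was 2 in all in DESeq2 and without its replicate 2 or 3.

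The genes of cyclins D1 and D2, CCND1 and CCND2, had at most 2 counts in any line. In the list of RB and E2F genes 2 of 11 tested genes rose and 4 fell in the EZH2 mutant, beside 32.3% of all tested genes, and 3 in all were called without EZH2 mutant replicate 1. E2F4, which acts with RB-like proteins in resting cells, rose at log2 0.98 (SE 0.13), and RBL1, which encodes the RB-like protein p107, fell at log2 -1.79 (SE 0.37) in the EZH2 mutant. In the KMT2D mutant 2 fell and none rose, beside 7.66% of all tested genes. That count was 4 with no filter or with only the groups compared, 1 with upper-quartile factors, with the replicate block or without wild type replicate 1 or 3, and 0 without wild type replicate 2 or KMT2D mutant replicate 1 or 3. In the double mutant 1 rose and 2 fell, beside 23.7% of all tested genes, and 5 in all were called with no filter, with only the groups compared or without either EZH2 mutant replicate.

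**Figure D3:**
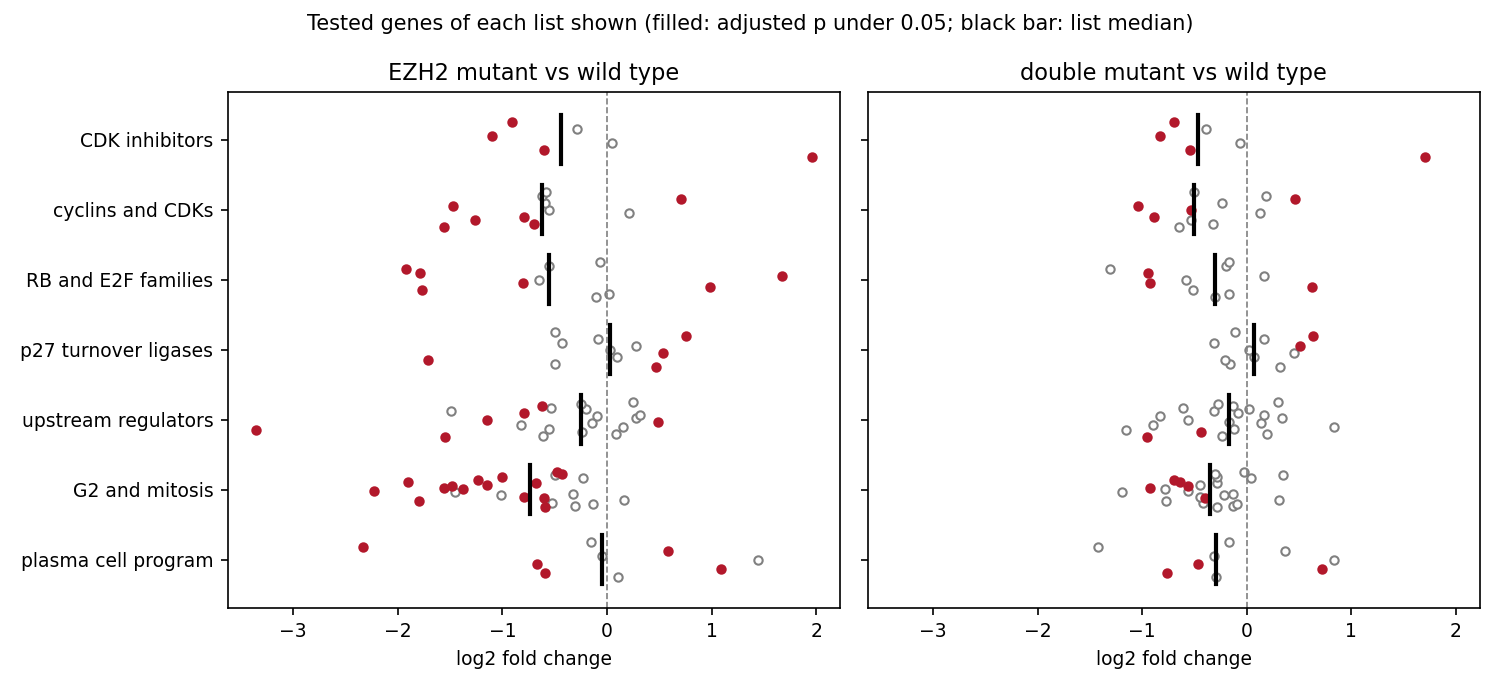
Log2 fold change (x axis) of the tested genes of each list shown (y axis), for the EZH2 mutant and the double mutant, each against wild type. Filled points passed the adjusted threshold and black bars are list medians, at -0.44 for the CDK inhibitors in the EZH2 mutant and -0.74 for G2 and mitosis genes.

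Transcription factors known to act on CDK inhibitor genes were a further list of 21 tested genes, of which 1 rose and 5 fell in the EZH2 mutant, 2 rose and none fell in the KMT2D mutant, and none rose and 2 fell in the double mutant. Over all tested genes 32.3%, 7.66% and 23.7% were called in these lines, so the share of this list in the EZH2 mutant was near that of all genes. Of these counts, that of the KMT2D mutant was 0 without wild type replicate 2 or KMT2D mutant replicate 1 and 1 without wild type replicate 1 or KMT2D mutant replicate 2 or 3, and that of the double mutant was 1 without its replicate 3 and 4 with upper-quartile factors. BCL6, the germinal centre repressor whose known targets include CDKN1A, fell to 39.8 ± 5.54 normalised CPM in the EZH2 mutant (n = 2) and 61.0 ± 4.54 in the double mutant, against 91.2 ± 9.57 in the KMT2D mutant and 119 ± 14.4 in wild type (SD, n = 3 each). Its log2 fold changes against wild type were -1.55 (SE 0.19) in the EZH2 mutant, -0.95 (SE 0.15) in the double mutant and -0.38 (SE 0.14, not called) in the KMT2D mutant. Over 7 germinal centre B cell markers, BCL6 among them, the summed level was 50.1 and 107 CPM in the EZH2 mutant and 98.0 to 135 in the double mutant, against 274 to 311 in the KMT2D mutant and 228 to 264 in wild type, with LMO2 and SERPINA9 at 0 throughout. The part of this shift in the CDK inhibitor values was not tested.

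The ubiquitin ligases that turn over p27 protein were measured by 11 genes. In the EZH2 mutant 3 rose and 1 fell, in the double mutant 2 rose and none fell, and none passed in the KMT2D mutant, beside 32.3%, 23.7% and 7.66% of all tested genes, shares near those of the list. In the KMT2D mutant none of the 11 had an unadjusted p under 0.05, and edgeR's quasi-likelihood test, DESeq2 and limma-voom called 0. The count of the EZH2 mutant was 2 with the strict filter, in DESeq2, and without wild type replicate 2 or 3 or EZH2 mutant replicate 1, and that of the double mutant was 1 in 16 of 19 alternatives. UBAC1, a subunit of the KPC ligase, rose at log2 0.75 (SE 0.17) in the EZH2 mutant and 0.63 (SE 0.15) in the double mutant. SKP2, which selects p27 for destruction, was at 44.8 ± 9.71 normalised CPM in the EZH2 mutant libraries (n = 2), 45.7 ± 6.78 in the KMT2D mutant, with 54.2 ± 10.4 in the double mutant, against 48.5 ± 6.63 in wild type, and did not pass in any of these.

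CDKN3 fell beside other late cell cycle genes. Of 24 tested G2 and mitosis genes none rose and 15 fell in the EZH2 mutant, none rose and 2 fell in the KMT2D mutant, and none rose and 5 fell in the double mutant. Over all tested genes 15.1%, 4.48% and 11.6% were called lower in these lines. The list medians were log2 -0.74, -0.13 and -0.35. NEK2, a centrosome kinase gene, fell at log2 -1.90 (SE 0.23) and KIF20A, a kinesin of cell division, at log2 -1.49 (SE 0.22) in the EZH2 mutant. The count of the double mutant was 1 without wild type replicate 3, 3 without double mutant replicate 1 and 9 under upper-quartile factors. The count of the KMT2D mutant was 1 without wild type replicate 1 or KMT2D mutant replicate 1 or 3.

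Of 9 tested genes of the plasma cell program, read because p18 acts there, 2 rose and 3 fell in the EZH2 mutant, none passed in the KMT2D mutant, and 1 rose and 2 fell in the double mutant, beside 32.3%, 7.66% and 23.7% of all tested genes. In the KMT2D mutant 1 had an unadjusted p under 0.05, edgeR's quasi-likelihood test, DESeq2 and limma-voom called 0, and 1 was called with no filter, with only the groups compared or without wild type replicate 3. The count of the double mutant was 6 with upper-quartile factors and 5 with no filter or the strict filter. FKBP11, a chaperone gene of the secretory pathway, rose to 274 ± 8.23 normalised CPM in the EZH2 mutant (n = 2) and 213 ± 19.9 in the double mutant, against 129 ± 8.73 in wild type (SD, n = 3). IRF4, a factor needed for plasma cells, fell at log2 -0.67 and -0.47 in those lines, the first not called without EZH2 mutant replicate 1 and the second not without wild type replicate 2. The counts of the EZH2 mutant went down to 2 in all without either of its replicates.

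Genes lying next to the CDK inhibitor genes gave 14 tested members, of which 2 rose and 1 fell in the EZH2 mutant, 1 rose and 2 fell in the KMT2D mutant, and 1 rose and 2 fell in the double mutant. Over all tested genes 32.3%, 7.66% and 23.7% were called in these lines, a larger share than in this list for the EZH2 mutant. The count of the KMT2D mutant was 0 without its replicate 1 or 3 and 1 without wild type replicate 1 or 2, and that of the double mutant was 1 with the strict filter. CPNE5, a copine gene on the reverse strand of chromosome 6 from 36740775 to 36840002, is a neighbour of CDKN1A. It stood at 592 ± 134 normalised CPM in the EZH2 mutant libraries (n = 2), 128 ± 11.6 in the KMT2D mutant, with 320.1 ± 25.4 in the double mutant, against 198 ± 31.1 in wild type (SD, n = 3 each). Its log2 fold changes of 1.58, -0.63 and 0.70 have the same signs as those of CDKN1A, which were 1.96, -0.55 and 1.70, though for CDKN1A the second was not called. That of CPNE5 was lost without wild type replicate 1 or KMT2D mutant replicate 1 or 3. PPIL1, farther along on the same side, was at log2 0.34 in the EZH2 mutant and did not pass. PANDAR, next to CDKN1A on the other side, had no count.

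GPR19 lies before the start of CDKN1B, on the opposite strand, and fell in the same lines. It had 4 counts in the EZH2 mutant and 12 in the double mutant, against 86 in the KMT2D mutant and 71 in wild type (log2 -2.83 in the EZH2 mutant and -2.03 in the double mutant against wild type). DDX47, downstream of CDKN1B, was at log2 0.17 and 0.02 and did not pass. Near CDKN1C, NAP1L4 rose at log2 0.68 (SE 0.15) in the EZH2 mutant, and KCNQ1 had 0 counts in the EZH2 mutant, 36 in the KMT2D mutant, with 1 in the double mutant, against 7 in wild type. The value of the KMT2D mutant was called against wild type (log2 2.26, SE 0.57), but not in DESeq2 (adjusted p = 0.149) and not without wild type replicate 2 or 3 or KMT2D mutant replicate 1 or 3.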

How the data were processed

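The deposited table holds counts per gene that the authors call corrected, without saying for what. Per the submitters' processing notes, reads were handled with Trim Galore 0.6.0, cutadapt 1.15, FastQC, STAR 2.7.0f and DESeq2, with no roles given. The counting program, build, annotation, strand and use of molecular barcodes are not given in the sources used here. Per the labels' protocols, libraries were made by MARS-seq. Of 12 listed samples, 11 have a column, and EZH2 mutant replicate 3 was not analysed here. The table holds 28278 genes, 13188 of them at 0 in every library.

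The test was that of edgeR 4.0.16 in R 4.3.3: filterByExpr by line with a minimum count of 10 (8813 genes), TMM factors, dispersions estimated over all 11 libraries, a robust quasi-likelihood fit with 1 term per line, Benjamini-Hochberg adjustment over all genes tested in each comparison, and a threshold of 0.05. Fold changes are each mutant line over wild type or the double over a single mutant. Correlations used log2 CPM with a prior count of 2. CDKN1C was compared by summed counts with exact 95% intervals. Alternatives were DESeq2 1.42.0, limma-voom (limma 3.58.1), upper-quartile factors, RLE factors, a strict filter of 10 CPM (6525 genes), every gene with a count (15090 genes), a fit of the compared groups alone, each library left out and a replicate block. Running them for the gene lists was added after the data were seen. The fit was tested on simulated data.

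The 8 genes, the 8 gene lists (159 entries, all found) and the tests were chosen with earlier results of these data known. Named are all 8 CDK inhibitor genes, up to 4 called genes per list and comparison with the smallest adjusted p, the 3 genes most like each tested one, and neighbours. CCND1, CCND2 and SKP2 were named for their role, outside that rule. 1 of the lists and some genes that the rule names are not reported here. Gene positions are GENCODE 29 (GRCh38), and promoter sequences are RefSeq (GRCh38.p14), found for 7 of the 8 genes. Tables and figures used Python 3.11.15, pandas 2.3.3, numpy 2.4.6, scipy 1.17.1 and matplotlib 3.10.9.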

Additional observations from a re-analysis of the deposited data

Results flagged for a closer look

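Among the CDK inhibitor genes and the gene lists, 9 genes are given here for which the EZH2 mutation had a different effect in the lines with and without KMT2D, by the interaction term (edgeR's quasi-likelihood test, Benjamini-Hochberg adjusted). Over all tested genes 266, or 3.02%, passed that term. The 9 come from the 6 tested CDK inhibitor genes and the tested genes of the 8 lists. That pool was not counted, so the 9 cannot be set against this share. CDKN2C was the CDK inhibitor among them, at log2 0.95, with an EZH2 effect of -0.15 without KMT2D and -1.10 with it. The cell death gene BBC3 had an interaction of log2 1.98 (-0.52 without KMT2D, -2.50 with it), BCL6 one of 0.97 (-0.58 and -1.55) and the mitotic kinase gene NEK2 one of 1.44 (-0.46 and -1.90). The phosphatase gene CDC25B was at 0.77 (0.16 and -0.61) and the transcription factor gene RUNX3 at 1.02 (0.23 and -0.79). In these 6 genes the EZH2 effect was nearer to 0 without KMT2D in value, or turned slightly positive. The other 3 were negative: the growth arrest gene BTG2 at -0.99 (-0.83 without KMT2D, 0.15 with it), ID3 at -0.98 (-0.50 and 0.48) and the MYC antagonist gene MXD4 at -1.68 (-1.78 and -0.10). Without EZH2 mutant replicate 2 the interaction of CDKN2C had an adjusted p of 0.0519, that of BBC3 0.162 and that of BTG2 0.106. Those of BCL6, CDC25B, MXD4 and RUNX3 were each lost on leaving out any of 4 or more libraries. The replicate block also ended those of BCL6 and MXD4. That of MXD4 was lost as well with RLE factors, the strict filter and limma-voom, and kept its call in only 5 of 18 alternatives. Those of NEK2 and ID3 held in all 18 alternatives.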

How the results depend on the processing

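Of the tested results for CDK inhibitor genes over the alternatives, 629 kept their direction and call, 25 lost the call, 10 gained one and 14 changed sign. The calls of CDKN1A in the EZH2 mutant (log2 1.76 to 2.07) and the double mutant (1.59 to 1.78) and those of CDKN2C in all 3 mutants and CDKN3 in the EZH2 and double mutants, all against wild type, held in all 19. No sign change touched a called value, and the cause was not tested. CDKN2A in the EZH2 mutant against wild type was at -0.13 with upper-quartile factors, -0.0071 with no filter, -0.049 with the strict filter, -0.015 without wild type replicate 2, -0.12 without EZH2 mutant replicate 1 and -0.0019 without double mutant replicate 1, in a range over libraries left out up to 0.14. CDKN2A was at -0.00041 in the double against the KMT2D mutant with upper-quartile factors, 0.050 in the double against the EZH2 mutant without EZH2 mutant replicate 1 (lowest -0.21), and -0.0045 in the interaction without EZH2 mutant replicate 2 (highest 0.27). CDKN1B in the KMT2D mutant against wild type was at 0.0084 without wild type replicate 3 (lowest -0.15). CDKN2D in the double against the KMT2D mutant was at 0.064 without KMT2D mutant replicate 1, 0.019 without double mutant replicate 2 and 0.099 without double mutant replicate 3 (lowest -0.18), and at 0.0033 against the EZH2 mutant without the last (lowest -0.23).

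Over single libraries left out, the genes called numbered 1764 to 2879 (EZH2 mutant against wild type, lowest without EZH2 mutant replicate 1), 346 to 785 (KMT2D mutant against wild type, lowest without KMT2D mutant replicate 3), 1374 to 2225 (double mutant against wild type, lowest without double mutant replicate 1), 99 to 242 (double against EZH2 mutant, lowest without double mutant replicate 3), 2822 to 3823 (double against KMT2D mutant) and 147 to 309 (interaction, lowest without EZH2 mutant replicate 2). CDK inhibitor genes called numbered 3 to 4, 1 to 1, 3 to 5, 0 to 0, 1 to 3 (1 without KMT2D mutant replicate 1 or 3 or double mutant replicate 3) and 0 to 1 (0 without EZH2 mutant replicate 2) in the same order. With no filter 381 genes were called between the double and the EZH2 mutant, against 202, and 482 in the interaction, against 266. With only the groups compared the count of the double against the EZH2 mutant was 102, and that fit was not run for the interaction. Upper-quartile factors moved the median of all genes to -0.20 in the EZH2 mutant and -0.13 in the double mutant, and CDKN2D was then called in the EZH2 mutant (-0.45).

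Whether replicate numbers pair the samples could not be decided. Over 15 same-numbered pairs the correlation of deviations from the line means ran from -0.29 to 0.38, and 5 were above 0.1. Same-numbered libraries of the KMT2D and double mutants gave 0.29, 0.21 and 0.066. Those of wild type and the KMT2D mutant gave -0.16, -0.24 and -0.025. Deviations of 2 or 3 libraries from their own mean cancel out, so such values cannot exclude pairing. With the replicate block 2445, 629, 2002, 151, 3630 and 230 genes were called in the same order of comparisons, and 3, 1, 4, 0, 2 and 1 CDK inhibitor genes. Depth limits CDKN1C and CDKN2B, and the EZH2 mutant rests on 2 libraries.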
